A study of Homo sapiens with 12 samples.

Results

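The aminoacyl-tRNA synthetase genes were described in mantle cell lymphoma (MCL) cells treated with an iron-sequestering compound and a kinase inhibitor. The genes were chosen by name from a list of 35 synthetases, of which 19 encode enzymes that act in the cytosol and 16 encode enzymes that act in mitochondria. All 35 were found with 1 identifier each among the 63677 genes of the count table, and all 35 were among the 18674 genes that passed the filter on low counts and were tested.

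Aminoacyl-tRNA synthetases attach each amino acid to its own tRNA and so supply the ribosome. Most cells carry separate nuclear genes for the cytosolic enzymes, which serve the bulk of protein synthesis, and for the mitochondrial enzymes, which serve translation of the few proteins encoded by mitochondrial DNA. Many cytosolic synthetase genes are known targets of ATF4, the transcription factor of the amino acid and integrated stress responses, whereas GARS1 and KARS1 make the enzyme for both compartments and are counted here as cytosolic.

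RNA was sequenced from 3 established MCL lines, JEKO1, JVM2 and MAVER1, and each line was kept for 48 h untreated (control), on either drug alone or on the combination. Ironomycin, which traps iron in lysosomes, was given at 50 nM to JEKO1 and at 250 nM to JVM2 and MAVER1, and ibrutinib, an inhibitor of Bruton's tyrosine kinase, at 0.5 µM to JEKO1, 1.5 µM to JVM2 and 6.25 µM to MAVER1. The doses with both drugs were those of the single drugs in the same line, so that dose and cell line cannot be told apart. The exception is ironomycin in JVM2 and MAVER1, which was given at the same dose. There was 1 library for each line and treatment, 12 in all, and the 3 lines served as replicates of a treatment (n = 3).

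Library totals ran from 35448523 to 38630809 reads, with the lowest in JEKO1 with both drugs, which also had the highest scaling factor. The B cell genes CD79A and MS4A1 were read in every library, SOX11 had no read in JVM2, and CCND1 stood at 216 to 322 normalized CPM (counts scaled to a common library total by TMM) in JVM2 against 2182 to 4828 in the other lines. The summed CPM was at most 3.2 for 3 T cell markers and at most 5.07 for 3 myeloid markers. Among these, CD3E and LYZ fell with both drugs from levels below 2.5 CPM. The 2 epithelial markers summed to between 0.0269 and 14.2 CPM, and EPCAM rose with both drugs, on the log2 scale by 0.97. Among the B lineage and MCL markers, CD79A fell and SOX11 rose with both drugs, and the part of any of these changes in the results below was not tested.

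The cytosolic genes were expressed well above the mitochondrial ones in every library. The summed level of the 19 cytosolic genes was 4636 to 6596 normalized CPM, and that of the 16 mitochondrial genes was 661 to 993 CPM. Per kilobase of exon, the highest control level was that of FARSA, which encodes the catalytic subunit of the phenylalanine enzyme, with 124 ± 43.7 CPM per kb (SD over 3 lines), followed by AARS1 with 104 ± 15.8 and VARS1 with 104 ± 20.4 CPM per kb. The levels of AARS1 and VARS1 lay within the spread of FARSA. The highest mitochondrial gene, IARS2 for isoleucine, stood at 36.3 ± 2.78 CPM per kb, below 12 of the 19 cytosolic genes. The lowest level of all was that of SARS2, the mitochondrial serine enzyme, with 0.905 ± 0.085 CPM per kb. SARS2 shares 57% of its exon length with other annotated genes, 46.2% on the same strand, so that its count is uncertain, and for VARS2 the share was 22%. Over the 35 genes and 12 libraries, counts ranged from 65 to 38964 reads.

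The lines themselves differed in nearly all members. In edgeR's quasi-likelihood F-test across the 3 lines with treatment as a term, 33 of 35 members were called at a Benjamini-Hochberg adjusted p under 0.05, against 90% of all genes tested. AARS1 (adjusted p = 0.259) and EPRS1, the joint enzyme for glutamate and proline (adjusted p = 0.144), were not called. Libraries of a line under different treatments stood in for replicates in this F-test. LARS1, the cytosolic leucine enzyme, averaged 260.0 CPM in JEKO1, 121 in JVM2 and 296 in MAVER1 over the 4 treatments. LARS2, its mitochondrial counterpart, averaged 47.7 CPM in JEKO1, 82.3 in JVM2 and 32.2 in MAVER1. The order of the lines was therefore reversed between the leucine enzymes, with JVM2 lowest for LARS1 and highest for LARS2. The ratio of summed cytosolic to summed mitochondrial CPM in the controls was highest in JEKO1 (6.97), lowest in JVM2 (5.36) and 6.33 in MAVER1.

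The first comparison asks what ironomycin alone changed. None of the 35 members was called with ironomycin against control, where 0.584% of all genes were called, by edgeR's quasi-likelihood test with treatment and cell line as terms. At an unadjusted p under 0.05, 14 members and 4198 of all 18674 genes passed, and DESeq2 with the same design called 12 members. The share of all genes that DESeq2 called is not given here, so the 12 cannot be set against it. The largest fitted log2 change was that of WARS1, the cytosolic tryptophan enzyme, at 1.07 ± 0.28 (SE; adjusted p = 0.0815). VARS1, the valine enzyme, had a log2 change of -0.49 ± 0.12 (adjusted p = 0.0712). The direction was shared by all 3 lines in many members. Of the 16 mitochondrial genes, 11 were lower with ironomycin in every line and none was higher in every line. Of the 19 cytosolic genes, 7 were higher in every line and 5 lower. Over all genes tested, 21.1% were lower in all 3 lines and 21.2% higher.

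With both drugs, 15 of 35 members were called against control, where 28.2% of all genes were called. The cytosolic calls went both ways. WARS1 and AARS1, the alanine enzyme, rose, and VARS1, FARSA, FARSB, KARS1 and HARS1 fell. All 8 mitochondrial calls were decreases, in EARS2, IARS2, LARS2, YARS2, MARS2, NARS2, FARS2 and TARS2. The median fitted log2 change was -0.05 over the cytosolic members and -0.33 over the mitochondrial members, beside 0.05 over all genes tested. In bulk RNA, fewer cells that express a gene and less RNA of it per cell cannot be told apart. The number of calls depended on the lines kept, with 0 members called without JEKO1, 0 without MAVER1 and 17 without JVM2. Without the single JEKO1 library with both drugs, 8 of the 15 calls remained, all of them decreases. Scaled by library totals alone, 6 cytosolic members were called higher, 4 cytosolic and 4 mitochondrial members lower, and the median log2 change over all genes moved from 0.05 to 0.18. For these refits the shares of all genes called are not given here.

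**Figure D1:**
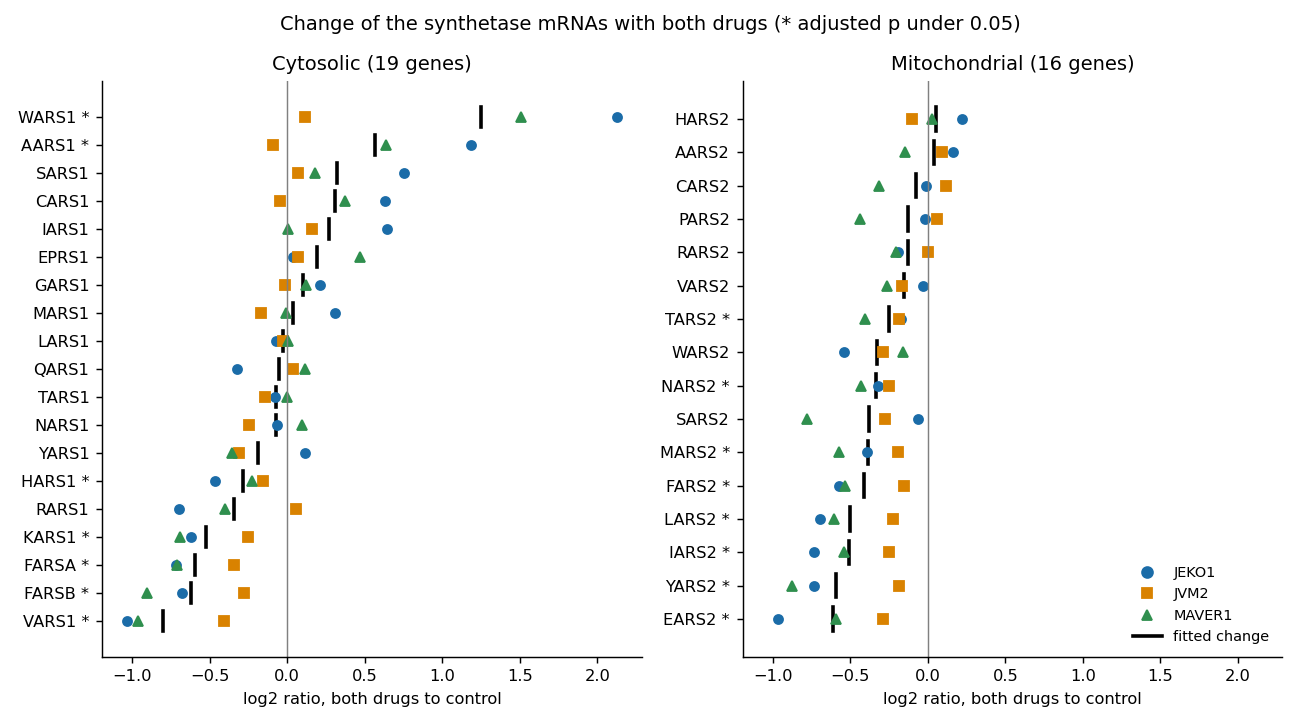
Log2 ratio of normalized CPM with both drugs to the control of the same line (x axis, prior count of 2) for each of the 19 cytosolic genes (left) and 16 mitochondrial genes (right). Circles are JEKO1, squares JVM2 and triangles MAVER1, the black bar is the change fitted over the 3 lines, and asterisks mark the 15 members with an adjusted p under 0.05. WARS1 and AARS1 lie to the right at the top of the cytosolic panel, VARS1 lies farthest to the left, and 12 of the 16 mitochondrial genes lie left of 0 in all 3 lines.

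WARS1 showed the largest change of any member. In JEKO1 it stood at 113 CPM in the control, 372 with ironomycin, 110.2 with ibrutinib and 496 on the combination. In MAVER1 the same values were 172, 418, 163 and 489 CPM. In JVM2 the levels were 400.3 CPM in the control, 524 with ironomycin, 239.9 with ibrutinib and 433 on the combination. The libraries with ironomycin were thus above those without it in each line, but the JVM2 control was above the controls of the other lines and near their treated levels. The fitted log2 change with both drugs was 1.25 ± 0.29 (SE, 3 lines; adjusted p = 0.0108 by edgeR's quasi-likelihood test). It was 0.93 (adjusted p = 0.0516) without the JEKO1 library with both drugs. WARS1 is also known as an interferon-induced gene. Of the 6 interferon response genes tested, with both drugs none was called higher and GBP1 was called lower, against 28.2% of all genes called. With ironomycin within single lines, 3 of these 6 were called higher and none lower in JEKO1. In JVM2 and in MAVER1, 2 were called lower and none higher. The shares of all genes called in either direction were 33.3% in JEKO1, 2.27% in JVM2 and 32.3% in MAVER1. The part of the interferon response in the change of WARS1 was not tested. Of the exon length of WARS1, 10.6% overlaps genes on the opposite strand.

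AARS1 rose with ironomycin in JEKO1 and MAVER1 and was not called in JVM2. Its levels in JEKO1 were 405 CPM in the control, 769 with ironomycin, 497 with ibrutinib and 922 on the combination. In MAVER1 they were 449, 636, 464 and 698 CPM, and in JVM2 544, 512, 451 and 509.8 CPM. The libraries with and without ironomycin overlapped in JVM2 alone. The fitted log2 change with both drugs was 0.57 ± 0.19 (adjusted p = 0.0453), and 0.38 (adjusted p = 0.196) without the JEKO1 library with both drugs.

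VARS1 had the largest decrease among the members. In JEKO1 its levels were 607 CPM in the control, 428 with ironomycin, 519 with ibrutinib and 296 on the combination. In MAVER1 they were 771, 489.5, 638 and 395 CPM, and in JVM2 527, 433, 508 and 398 CPM. The lowest value of each line was that with both drugs, and the libraries with ironomycin lay below those without it in every line. The fitted log2 change with both drugs was -0.80 ± 0.12 (adjusted p = 0.00334).

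FARSA and FARSB encode the paired subunits of the cytosolic phenylalanine enzyme, and they fell by similar amounts, by 0.59 ± 0.10 (adjusted p = 0.00383) and by 0.62 ± 0.12 (adjusted p = 0.00525) on the log2 scale. In the order control, ironomycin, ibrutinib and both drugs, FARSA stood at 383, 318, 369 and 233 CPM in JEKO1, at 182, 164, 188 and 144 CPM in JVM2, and at 342, 232, 305 and 209 CPM in MAVER1. FARSB stood at 113, 91.9, 103 and 70.6 CPM in JEKO1, at 92.9, 82.4, 92.3 and 76.5 CPM in JVM2, and at 141, 95.6, 136 and 75 CPM in MAVER1. In both genes the libraries with ironomycin lay below the others in every line.

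KARS1, the lysine enzyme of both compartments, and HARS1, the histidine enzyme, completed the cytosolic decreases. KARS1 stood at 391, 300.3, 374 and 254 CPM in JEKO1, at 248, 223, 240.0 and 208 CPM in JVM2, and at 373, 259, 334 and 231 CPM in MAVER1, in the same order of treatments. HARS1 stood at 114, 94.0, 102 and 82.7 CPM in JEKO1, at 109.7, 97.6, 112 and 98.5 CPM in JVM2, and at 96.3, 78.6, 93.3 and 82.3 CPM in MAVER1. Neither gene overlapped between libraries with and without ironomycin within a line, but the steps of HARS1 were small, and 8.38% of its exon length overlaps genes on the opposite strand, HARS2 among them. The fitted log2 changes with both drugs were -0.52 ± 0.10 for KARS1 (adjusted p = 0.00517) and -0.28 ± 0.08 for HARS1 (adjusted p = 0.0239).

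The mitochondrial decreases were all smaller than that of VARS1. EARS2, the glutamate enzyme, stood at 81.3 CPM in the control, 62.2 with ironomycin, 75.6 with ibrutinib and 41.6 on the combination in JEKO1, at 88.8, 75.6, 92.7 and 72.8 CPM in JVM2, and at 70.9, 53.0, 69.9 and 46.9 CPM in MAVER1. IARS2 stood at 142, 107.9, 132 and 85.4 CPM in JEKO1, at 164, 146, 163 and 138 CPM in JVM2, and at 147, 119, 140.0 and 101 CPM in MAVER1. In every line the library with both drugs was the lowest for both genes, and the level with ibrutinib alone was above that with ironomycin alone. The fitted log2 changes with both drugs were -0.61 ± 0.11 for EARS2 (adjusted p = 0.00526) and -0.51 ± 0.09 for IARS2 (adjusted p = 0.0048).

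LARS2 stood at 55.8, 44.7, 56.0 and 34.4 CPM in JEKO1, at 88.5, 78.2, 86.9 and 75.7 CPM in JVM2, and at 39.3, 27.9, 35.8 and 25.8 CPM in MAVER1. YARS2, the tyrosine enzyme, stood at 16.5, 11.4, 17.2 and 9.89 CPM in JEKO1, at 30.9, 28.0, 32.6 and 27.2 CPM in JVM2, and at 26.1, 17.2, 23.0 and 14.2 CPM in MAVER1. Both genes were lowest with both drugs in each line, and the drop in JVM2 was the smallest. The fitted log2 changes with both drugs were -0.50 ± 0.10 for LARS2 (adjusted p = 0.00737) and -0.59 ± 0.13 for YARS2 (adjusted p = 0.00923).

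MARS2, the methionine enzyme, stood at 44.4, 35.1, 43.7 and 33.8 CPM in JEKO1, at 56.5, 49.6, 68.0 and 49.6 CPM in JVM2, and at 60.4, 43.4, 55.4 and 40.7 CPM in MAVER1. NARS2, the asparagine enzyme, stood at 41.9, 39.1, 40.9 and 33.5 CPM in JEKO1, at 24.4, 23.6, 22.4 and 20.6 CPM in JVM2, and at 81.3, 63.7, 74.3 and 60.3 CPM in MAVER1. MARS2 did not overlap between libraries with and without ironomycin within a line, while NARS2 overlapped in JVM2. The log2 changes with both drugs were -0.39 ± 0.09 for MARS2 (adjusted p = 0.0111) and -0.34 ± 0.08 for NARS2 (adjusted p = 0.0153). FARS2, the phenylalanine enzyme (-0.41 ± 0.11, adjusted p = 0.0207), and TARS2, the threonine enzyme (-0.25 ± 0.08, adjusted p = 0.0367), were the other called decreases.

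**Figure D2:**
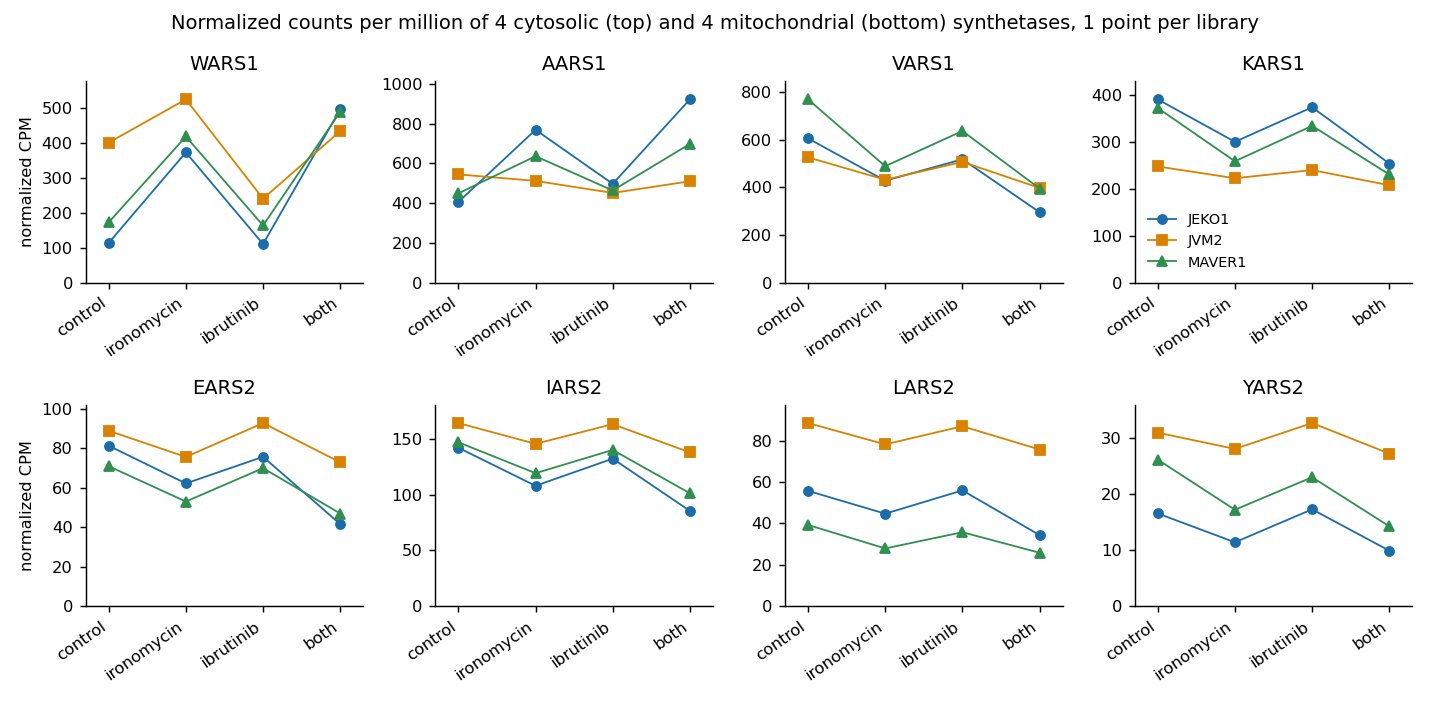
Normalized CPM (y axis, from 0) of WARS1, AARS1, VARS1 and KARS1 (top row, cytosolic) and EARS2, IARS2, LARS2 and YARS2 (bottom row, mitochondrial) under the 4 treatments (x axis). Each point is 1 library and lines join the libraries of 1 cell line; WARS1 and AARS1 peak in the libraries with ironomycin, except AARS1 in JVM2, and the other 6 genes dip in them.

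The members that were not called with both drugs had fitted log2 changes between -0.38 (SARS2) and 0.32 (SARS1, the cytosolic serine enzyme). Of the 12 such cytosolic genes, 6 had a positive change and 6 a negative one. Of the 8 such mitochondrial genes, HARS2 (0.05) and AARS2 (0.04) had a positive change. Counted by line, 12 mitochondrial and 6 cytosolic genes were lower with both drugs in all 3 lines, against 23.7% of all genes, and 4 cytosolic and no mitochondrial genes were higher in all 3, against 25.4% of all genes. The cytosolic genes that were higher in all 3 lines were EPRS1, IARS1, SARS1 and WARS1.

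The classes were then contrasted as means over their members. With ironomycin against control the mean log2 ratio was 0.04 ± 0.09 (SD over 3 lines) for the cytosolic members and -0.20 ± 0.11 for the mitochondrial members. With both drugs against control it was -0.03 ± 0.09 and -0.30 ± 0.14. The difference between the classes was 0.25 with ironomycin and 0.27 with both drugs, and taken from medians over the members in place of means it was 0.41 and 0.32. The cytosolic mean exceeded the mitochondrial mean in every line, by 0.38 in JEKO1, 0.04 in JVM2 and 0.39 in MAVER1 with both drugs, and by 0.35, 0.08 and 0.30 with ironomycin alone. The median log2 ratio over all genes lay between 0.00 and 0.03 in these 6 pairs of libraries. The ratio of summed cytosolic to summed mitochondrial CPM accordingly went from 6.97 in the JEKO1 control to 9.88 with both drugs, from 6.33 to 8.27 in MAVER1 and from 5.36 to 5.56 in JVM2. As the classes are read within the same library, their difference hardly depends on the scaling, and it was 0.27 with both drugs under all 3 scalings. The difference was spread unevenly among the members, and is given here as a description, with no test.

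**Figure D3:**
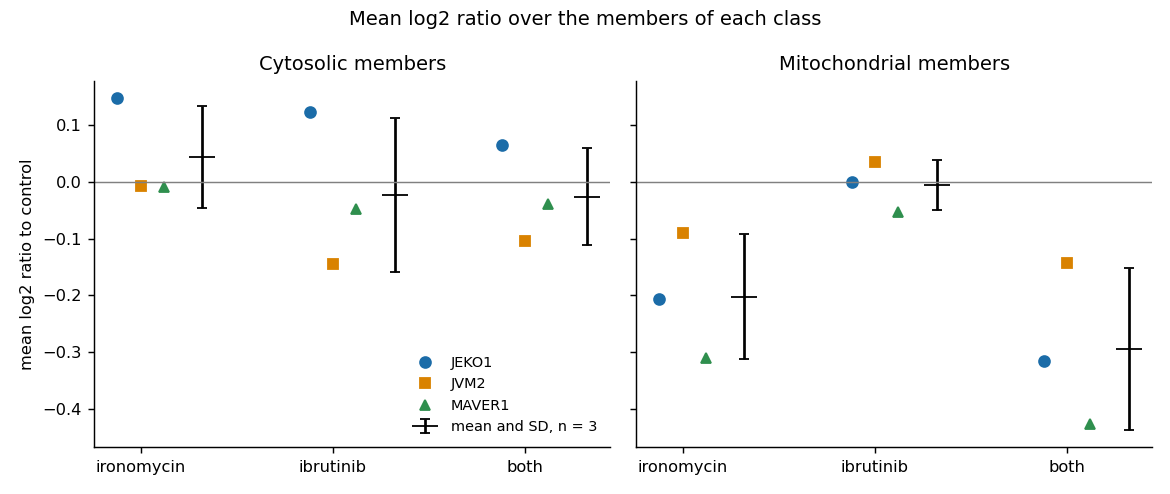
Mean log2 ratio to the control of the same line (y axis) over the 19 cytosolic members (left) and the 16 mitochondrial members (right) with ironomycin, ibrutinib or both drugs (x axis). Points are the 3 lines and the black bar is their mean and SD (n = 3); the mitochondrial mean is below 0 in every line with ironomycin and with both drugs, while the cytosolic mean lies on both sides of 0.

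Enzymes for the same amino acid were set side by side, which gave 17 pairs of a cytosolic and a mitochondrial gene, with EPRS1 paired to both EARS2 and PARS2, and FARS2 to both FARSA and FARSB. With both drugs, the log2 ratio of the cytosolic gene was above that of its mitochondrial partner in all 3 lines in 9 pairs, below it in all 3 lines in 4 pairs and mixed in 4 pairs. The widest gap was between WARS1 and WARS2, the tryptophan enzymes, at 1.58 ± 1.13 (SD over 3 lines), with 2.67 in JEKO1, 0.40 in JVM2 and 1.66 in MAVER1. EPRS1 over EARS2 (0.81 ± 0.39) and IARS1 over IARS2 (0.78 ± 0.52) came next. The reverse order was found for valine, where VARS1 over VARS2 gave -0.65 ± 0.39, for histidine (-0.33 ± 0.32) and for both subunits of the phenylalanine enzyme (-0.17 ± 0.02 for FARSA and -0.20 ± 0.15 for FARSB). The class difference therefore did not hold for every amino acid. With ironomycin alone the counts were 9, 3 and 5 pairs, and with ibrutinib alone 1, 2 and 14 pairs.

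**Figure D4:**
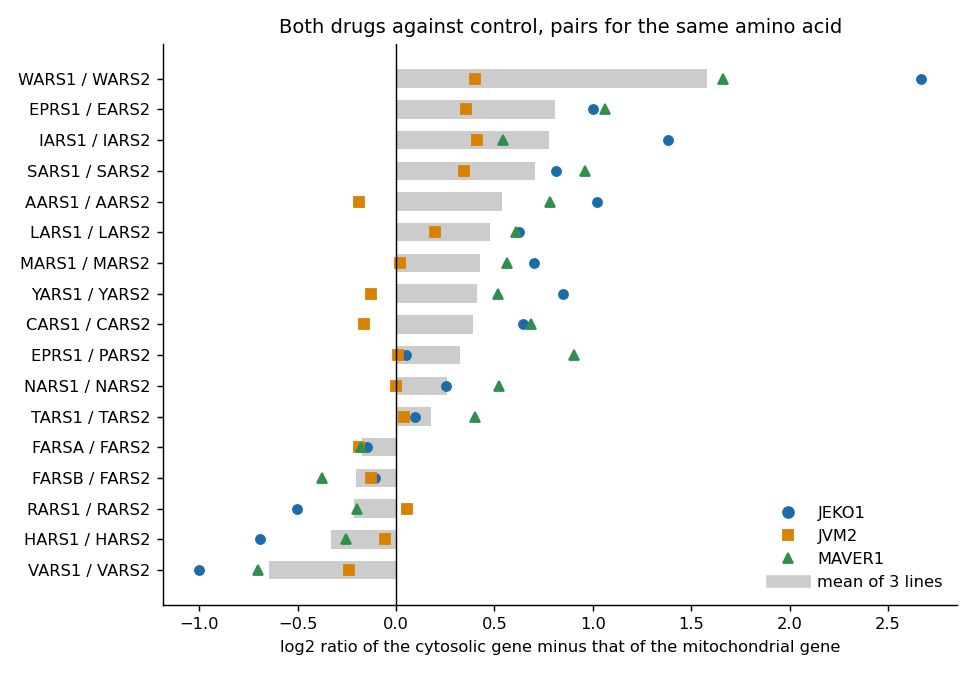
Difference between the log2 ratio (both drugs to control) of a cytosolic gene and that of the mitochondrial gene for the same amino acid (x axis) for the 17 pairs (y axis). Points are the 3 lines and grey bars their mean; WARS1 over WARS2 is widest at 1.58, VARS1 over VARS2 is lowest at -0.65, and JVM2 lies nearest to 0 in most pairs.

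Ibrutinib alone moved no member past the threshold, and 0% of all genes were called by edgeR, with none of the members and 680 of all genes at an unadjusted p under 0.05 and no member called by DESeq2. The fitted log2 changes of the members ran from -0.34 (WARS1) to 0.12 (TARS1). In direction, 4 cytosolic and 3 mitochondrial genes were lower in all 3 lines, against 15.2% of all genes, and 1 cytosolic and 2 mitochondrial genes were higher, against 14.4% of all genes. A comparison of the ibrutinib effect between lines, added after the data were seen, called none of the members and 0.948% of all genes. This comparison had 6 members and 1850 of all genes at an unadjusted p under 0.05. Its fit used libraries with and without ironomycin, so it is not of ibrutinib alone. Within single lines it called VARS1 in JEKO1, where the log2 change was -0.38 ± 0.09 (adjusted p = 0.0378, edgeR's quasi-likelihood test). The log2 ratio of VARS1 there was -0.23 with ibrutinib against control and -0.53 with both drugs against ironomycin. No member was called in JVM2 or MAVER1. At an unadjusted p under 0.05 there were 13 members in JEKO1 and 2 each in JVM2 and MAVER1. Over all genes these counts were 4101, 1612 and 2107. The shares of all genes called were 5.7% in JEKO1, 0.155% in JVM2 and 0.53% in MAVER1.

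Setting the combination beside ironomycin alone showed what ibrutinib added. No member was called with both drugs against ironomycin, and 0% of all genes were called by edgeR, with 5 members and 1970 of all genes at an unadjusted p under 0.05, and DESeq2 called no member either. In direction, however, 9 cytosolic and 9 mitochondrial genes were lower with both drugs than with ironomycin in all 3 lines, against 20.3% of all genes, and 2 mitochondrial genes (CARS2 and HARS2) were higher in all 3, against 19.3%. The fitted changes were within -0.31 (VARS1) and 0.17 (WARS1). Whether the 2 drugs together differed from their added single effects was tested as a departure on the log2 scale, which was called for no member by edgeR or DESeq2 and for 0% of all genes, with none of the members and 367 of all genes at an unadjusted p under 0.05. The departure was 0.52 ± 0.39 for WARS1 and -0.24 ± 0.16 for EARS2.

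Against ibrutinib alone, the combination gave 12 called members beside 23.3% of all genes, with WARS1 (log2 change 1.59 ± 0.29, adjusted p = 0.00669) and AARS1 (0.57 ± 0.19, adjusted p = 0.0488) higher, and 4 cytosolic and 6 mitochondrial members lower. Averaged over the presence and absence of ibrutinib, ironomycin gave 18 called members beside 33.4% of all genes. The average shares its libraries with the single comparisons and is no separate evidence. It added increases of IARS1, the isoleucine enzyme (0.24 ± 0.08, adjusted p = 0.0364), and SARS1 (0.30 ± 0.10, adjusted p = 0.0335), and a decrease of VARS2 (-0.17 ± 0.05, adjusted p = 0.0374). Scaled by library totals, the average gave 6 increases and 11 decreases in place of 4 and 14. It gave 6 calls without JEKO1, which were those of WARS1, VARS1, FARSA, FARSB, EARS2 and MARS2, and 0 without MAVER1. In 12 members (5 cytosolic and 7 mitochondrial) every library with ironomycin lay below every library without it in each of the 3 lines, against 11.1% of all genes. In 3 members (IARS1, SARS1 and WARS1) they lay above, against 9.72% of all genes.

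The ironomycin effect was also estimated within each line, from 2 libraries with and 2 without the drug. In JEKO1, 17 members were called (4 higher, 13 lower), against 33.3% of all genes, and scaled by library totals 6 were higher and 10 lower. In MAVER1, 20 members were called (3 higher, 17 lower), against 32.3% of all genes. In JVM2 none was called by edgeR, against 2.27% of all genes called. There, 9 members and 3556 of all 18674 genes had an unadjusted p under 0.05. The 4 increases in JEKO1 were WARS1, AARS1, SARS1 and IARS1, and the 3 in MAVER1 were WARS1, AARS1 and EPRS1. Mitochondrial decreases numbered 7 in JEKO1 and 12 in MAVER1.

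A test of the difference between lines called 3 of the 35 members, a share near the 7.97% of all genes, all of them cytosolic. WARS1 had a log2 change with ironomycin of 1.96 ± 0.21 in JEKO1, of 0.59 ± 0.20 in JVM2 and of 1.44 ± 0.20 in MAVER1 (adjusted p of the difference = 0.0291, edgeR's F-test on 2 coefficients). For AARS1 it was 0.91 ± 0.12, 0.03 ± 0.12 and 0.55 ± 0.12 (adjusted p = 0.025). For RARS1, the arginine enzyme, it was -0.49 ± 0.09, 0.07 ± 0.09 and -0.31 ± 0.09 (adjusted p = 0.0416). In each of the 3 genes JVM2 was the line with the change nearest to 0. JVM2 received the same dose of ironomycin as MAVER1 and 5 times that of JEKO1. None of the mitochondrial members differed between lines past the threshold, the lowest adjusted p among them being 0.104 (YARS2), so that a weaker response of the mitochondrial members in JVM2 was not shown.

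Among the 27 tested genes of the ATF4 and amino acid response, 16 were called with both drugs against control against 28.2% of all genes, and all 16 were higher, with a median log2 change of 0.81 over the list beside 0.05 over all genes. The increases included DDIT3, the stress factor CHOP (1.82 ± 0.33, adjusted p = 0.00462), TRIB3, a pseudokinase that restrains ATF4 (1.96 ± 0.55, adjusted p = 0.0238), VLDLR, a lipoprotein receptor (1.95 ± 0.44, adjusted p = 0.00984), and ALDH1L2, a mitochondrial folate enzyme (2.62 ± 0.44, adjusted p = 0.00393). Of the 13 cytosolic synthetases commonly listed as ATF4 targets, 2 were called higher and 1 lower (VARS1), with a median of 0.10, and these 3 calls of 13 were no larger a share than the 28.2% of all genes. Of the 6 others, 4 were called lower (FARSA, FARSB, HARS1 and KARS1) and none higher, with a median of -0.43. By line, the 13 had a median ratio of 0.21 (JEKO1), -0.04 (JVM2) and 0.09 (MAVER1), and the ATF4 list one of 1.33, 0.15 and 0.85. Both groups of genes thus ranked the lines in the same order, and a link between them was not tested. JVM2 also had the smallest share of all genes called with ironomycin within a line, 2.27%.

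**Figure D5:**
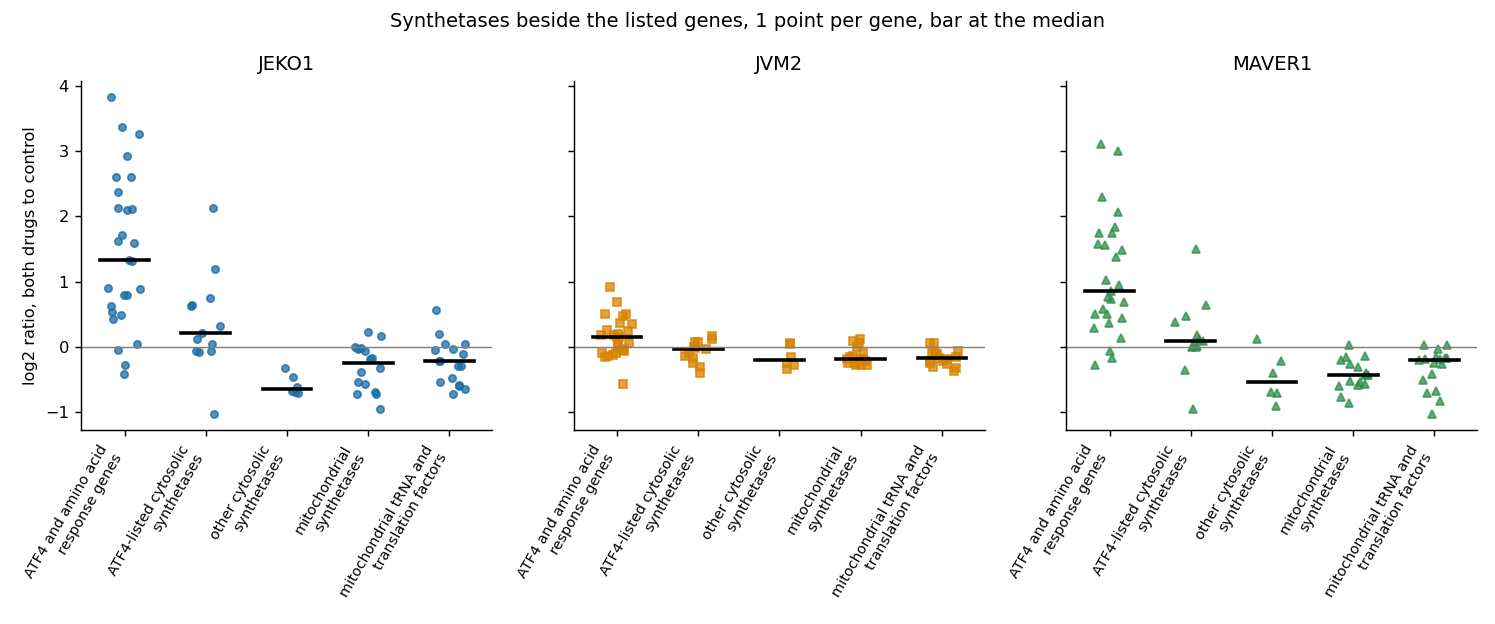
Log2 ratio of both drugs to control (y axis) in JEKO1, JVM2 and MAVER1 (panels) for 27 ATF4 and amino acid response genes, 13 cytosolic synthetases listed as ATF4 targets, 6 other cytosolic synthetases, 16 mitochondrial synthetases and 17 mitochondrial tRNA and translation factors. Points are genes and black bars medians; the ATF4 genes reach 3.84 in JEKO1 and 0.916 in JVM2, and the mitochondrial medians are below 0 in each line.

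Promoter sequence was compared with these changes, because ATF4 binds composite C/EBP-ATF elements. The motif TGATGNAA was searched on both strands from 250 bases before to 50 bases after each gene's start in the RefSeq promoter table (GRCh38.p14). Only 1 start per gene was used in the motif searches. It was held by 3.67% of 27305 promoters, by 6 of the 16 cytosolic members with an entry and by 1 of the 14 mitochondrial members with an entry. LARS1, VARS1, YARS1, AARS2 and VARS2 had no entry. The matches are shown on the gene's strand from 5′ to 3′ with the motif, or its reverse complement, in capitals.
AARS1, chr16:70289675-70289704, minus strand: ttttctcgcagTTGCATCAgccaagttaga
CARS1, chr11:3057407-3057436, minus strand: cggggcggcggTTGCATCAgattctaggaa
IARS1, chr9:92293692-92293721, minus strand: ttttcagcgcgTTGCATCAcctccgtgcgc
MARS1, chr12:57488053-57488082, plus strand: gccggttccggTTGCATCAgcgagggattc
NARS1, chr18:57621804-57621833, minus strand: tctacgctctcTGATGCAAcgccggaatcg
TARS1, chr5:33440956-33440985, plus strand: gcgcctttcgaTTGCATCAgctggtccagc
YARS2, chr12:32756076-32756105, minus strand: atccacactgcTGATGGAAaaattaagttt

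The 6 cytosolic genes carried the same 8 bases, TGATGCAA on 1 of the strands, and in 5 of them the match lay within 22 bases of the start, while in AARS1 it lay at -187 to -180. With both drugs their log2 changes were 0.57 for AARS1, 0.31 for CARS1, 0.27 for IARS1, 0.04 for MARS1, -0.07 for NARS1 and -0.07 for TARS1. Only AARS1 among them was called, and WARS1, with the largest increase, had no match in this window at the 1 start searched. A motif of GAAA, any 2 bases and GAAA, part of the interferon-stimulated response element, was held by 3.65% of all promoters, by none of the 16 cytosolic members and by EARS2 among the 14 mitochondrial members. A match is a description of the letters and not evidence of binding.

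The partners of the synthetases were read from fixed lists. Of 17 mitochondrial tRNA and translation factors, 5 were called with both drugs, a share near the 28.2% of all genes, and all 5 were lower, with a list median of -0.17. They were TUFM, the elongation factor that carries charged tRNA to the mitochondrial ribosome (-0.69 ± 0.13, adjusted p = 0.00545), MTFMT, which formylates the initiator methionyl-tRNA (-0.58 ± 0.11, adjusted p = 0.00648), TSFM, the exchange factor of TUFM (-0.52 ± 0.11, adjusted p = 0.00831), GFM1, the translocation factor (-0.49 ± 0.10, adjusted p = 0.00719), and GATB, a subunit of the amidotransferase for glutaminyl-tRNA. Of 15 tested accessory and cytosolic elongation factors, AARSD1, an alanyl-tRNA editing protein (0.999 ± 0.28, adjusted p = 0.0242), and XPOT, the tRNA exporter (0.62 ± 0.15, adjusted p = 0.012), were called higher. Called lower were DTD1, which clears D-amino acids from tRNA, DTD2, and AIMP2, a scaffold of the multi-synthetase complex. Both directions together made 5 calls of 15, also near the share of all genes, and the list median was 0.05. Of the 7 synthetases of the multi-synthetase complex, KARS1 alone was called, a share below that of all genes, and the median of the 7 was -0.03.

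The enzymes fall into structural classes I and II by the fold of their catalytic domain. With both drugs, 1 of 9 class I cytosolic genes was called higher (WARS1) and 1 lower (VARS1), and of 9 class II cytosolic genes 1 was called higher (AARS1) and 4 lower. Among the mitochondrial genes 5 of 9 class I and 3 of 7 class II members were called lower. Over all genes, 28.2% were called in either direction, and no difference between the structural classes was tested. EPRS1, which joins a domain of each class, was not called.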

How the data were processed

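RNA-seq counts were analysed for 12 libraries of 3 MCL cell lines under 4 treatments. The deposited table holds raw read counts for each gene, made by the authors and not normalized, from stranded paired-end poly(A) libraries. The submitters' processing notes name STAR, DESeq2 and GRCh37, and the counter and its strand setting are not given in the sources used here. Every column was used (0 unused).

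Counts were tested in R 4.3.3 with edgeR 4.0.16 (quasi-likelihood F-test, TMM scaling, filterByExpr, Benjamini-Hochberg adjustment over 18674 genes, call at an adjusted p under 0.05), with treatment and cell line as terms. The ironomycin effect by line used a term within each line and 1 ibrutinib term. Normalized CPM are CPM on TMM-scaled totals. Ratios used a prior count of 2, and levels per kilobase used GENCODE 29 exon lengths. The difference in ibrutinib effect between lines was added after the data were seen. Fits were tested on simulated data.

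The cell line pairs the libraries: once treatment means were removed, 2 libraries of a line correlated at 0.926 to 0.976, and libraries of different lines and treatments at -0.684 to -0.127. Each line gave 1 library per treatment. In the fit with treatment and cell line as terms, p-values for treatment therefore measure the spread between lines. The test across the lines came from the same fit, where libraries of a line under different treatments stood in for replicates. Its p-values do not measure the spread between repeat cultures of a line. In the tests of a drug within a line, or of its difference between lines, libraries that differ in the other drug stood in for replicates. Those p-values measure neither the spread of the effect between lines nor that between repeat cultures of a line. Totals were at least 35448523 reads, and a member had 65 to 38964 reads in a library.

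The members, lists and motifs were chosen with earlier results of these data known. Levels in every library were given for the 6 cytosolic and 6 mitochondrial members with the lowest p for both drugs against control, and for AARS1, which was added after its values were seen; for other lists, up to 4 called genes with the largest change were given with values. The result of 1 marker is not reported here. Alternatives were other scalings, no filter, DESeq2 1.42.0, no line term, each line left out, a log2 fold minimum of 1, and for the class means another prior count (0.5), medians, and GARS1 and KARS1 left out.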

Additional observations from a re-analysis of the deposited data

Results flagged for a closer look

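The change with ironomycin differed between the cell lines in 3 members by edgeR's F-test on the difference of the line-specific effects, with adjusted p = 0.025 for AARS1, 0.0291 for WARS1 and 0.0416 for RARS1. AARS1 had a log2 change of 0.91 in JEKO1, of 0.03 in JVM2 and of 0.55 in MAVER1. In WARS1 it was 1.96, 0.59 and 1.44, and the JVM2 control started at 400.3 normalized CPM, against 113 in JEKO1 and 172 in MAVER1. In RARS1 it was -0.49, 0.07 and -0.31. The 3 of 35 members are a share near the 7.97% of all genes called in this test. The calls were also made with median-of-ratios factors and with library totals, 3 members each time. They were not made in the fits that left out JVM2 or MAVER1 (0 members each), while 5 members were called without JEKO1. JEKO1 received a lower dose of ironomycin than the other lines, so line and dose cannot be told apart for it. JVM2 and MAVER1 received the same dose of ironomycin and different doses of ibrutinib.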

How the results depend on the processing

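Named members kept their direction in all 580 recomputations of 82 called results, and 195 of these lost the call. The recomputations reused the same libraries, and many of the results share a gene, so they are no independent checks of direction. With both drugs against control, the 15 called members became 0 without the cell line term (no replicate block), 8 without the JEKO1 library with both drugs, 0 with only the 6 libraries compared and 1 with a log2 change of at least 1 as well. Against ibrutinib, the 12 became 0, 5, 1 and 1 under the same settings. The average ironomycin effect went from 18 to 0 without the line term and to 1 with the fold minimum. Ironomycin against control went from 0 to 2 members without the filter and to 12 with DESeq2. In JVM2, 1 member was called with an ibrutinib term for each line. Ibrutinib in JEKO1 gave 3 members with library totals and 0 without the filter. The cause of these changes in number was not tested, and some settings also had fewer samples or a stricter rule. Shares of all genes called under the alternative settings are not given here. Leaving out 1 line at a time gave 0 to 10 members for ironomycin, 0 to 17 for both drugs, 0 to 14 for both drugs against ibrutinib, 0 to 19 for the average, 0 to 5 for the difference between lines and 23 to 27 for cell line. The cytosolic minus mitochondrial class difference with medians was 0.413 for ironomycin in place of 0.246, and turned to -0.0967 for both drugs against ironomycin, from 0.023. With 1 library per line and treatment, the spread within a line is unknown.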
